A study of Mus musculus with 19 samples.

Results

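The 7 genes described here encode the MHC class II presentation machinery and its master regulator: H2-Aa, H2-Ab1, H2-Eb1, Cd74, H2-DMa, H2-DMb1 and Ciita. They were taken by gene symbol as 7 of 20408 genes in a matrix of normalized RNA-Seq counts from the suprarenal abdominal aorta (SRA) of 19 male mice. MHC class II molecules are pairs of an α and a β chain that hold peptides from ingested proteins on the surface of antigen-presenting cells (dendritic cells, macrophages and B cells), where CD4+ T cells read them. The invariant chain, encoded by Cd74, escorts new class II pairs and plugs their groove. The H2-DM pair then exchanges the remnant of that plug for peptide, and CIITA, a coactivator recruited by factors bound to the class II promoters, switches the whole set on. In an artery wall most class II RNA is commonly attributed to resident macrophages and dendritic cells, and interferon-γ can induce Ciita in other cells.

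The study asked how IKKβ, the kinase that activates canonical NF-κB, acts in vascular smooth muscle cells (VSMCs) early in an aneurysm model driven by angiotensin II (Ang II). All mice carried the inducible transgene SMA-CreERT2, lacked ApoE, were on a C57BL6 background, ate chow and received tamoxifen for 5 days from 8 weeks of age. IKKβ-/- mice (labelled KO) had both Ikbkb alleles floxed, and IKKβ+/+ mice (labelled WT) did not. Because Acta2 drives this Cre, the deletion was aimed at smooth muscle cells, and macrophages and other cells of IKKβ-/- mice keep the gene. Ang II or saline was infused under the skin by osmotic pump for 24 h, and carprofen was given to every group. The sample descriptions share 1 wording of the Ang II dose, 500 to 1000 ng per minute per kg, with no dose per mouse, and the methods name the upper end of that range for the sequenced aortas. There were 5 IKKβ+/+ mice with saline, 5 IKKβ+/+ mice with Ang II, 4 IKKβ-/- mice with saline and 5 IKKβ-/- mice with Ang II, each a separate animal and library. No batch is named in the labels, so a batch that followed the groups cannot be told apart from them.

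Depth ranged from 11382573 to 19906694 reads on genes per mouse. Ikbkb, the targeted gene, was at 673 ± 78.6 (SD, n = 5) in normalized counts for IKKβ+/+ mice given saline and 515 ± 74.3 (n = 4) in IKKβ-/- mice with saline, a difference of -0.39 on the log2 scale (limma, adjusted p = 0.0988). With Ang II the means were 726 ± 46.3 (n = 5) and 548 ± 87.9 (n = 5), and the groups did not overlap although the difference of -0.42 missed the threshold (limma, adjusted p = 0.173). Acta2, the smooth muscle actin gene, had 113336 to 301107 normalized counts in every library. In this bulk tissue, fewer cells of a type and less RNA per cell cannot be told apart.

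Coordinates are on GRCm38. H2-DMa (chr17:34119541-34139101, plus strand), H2-DMb1 (chr17:34153072-34160230, plus), H2-Ab1 (chr17:34257689-34269419, plus), H2-Aa (chr17:34282744-34287823, minus) and H2-Eb1 (chr17:34305867-34316674, plus) are neighbours in the H2 complex on chromosome 17. Ciita lies at chr16:10480059-10528418 (plus), and Cd74 on a chromosome of its own. Their 84-base windows of GENCODE transcript sequence were unique to the gene for all but H2-DMb1, which shared 14.2% of 1595 windows with its paralog H2-DMb2, a gene at 0 to 17.1 normalized counts here. Exons of Ciita overlap those of Dexi on the opposite strand. The libraries were stranded, the strand setting of the counting is not given in the sources used here, and Dexi differed by -0.11 with Ang II in IKKβ+/+ mice and by 0.13 in IKKβ-/- mice (log2, limma adjusted p = 0.702 and 0.694).

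Class II promoters carry a conserved module in which an X box, bound by the RFX complex with RFX5, stands just before a Y box, bound by NF-Y, and CIITA docks on the assembled factors. RefSeq promoters, 250 bases before to 50 after a start site on GRCm38.p6, were used for 4 of the 7 members. None was at hand for H2-Ab1 and Ciita, and Cd74 was left out by choice. The promoters of those 4 genes were searched on both strands for an X box core (ACNGATG) and a Y box (GATTGG). Of 32851 promoters of that length, 9.85% held the X core, 16.1% the Y box, and 0.107% the X core followed by the Y box on the same strand after 10 to 40 bases. The windows of H2-Eb1 and H2-Aa are shown because these genes had the lowest adjusted p-values among the members with Ang II in IKKβ+/+ mice, with and without that exact pair. Capitals mark the X core, the Y box and, in H2-Aa, a cyclic AMP response element (TGACGTCA), a motif searched after the window had been seen and held by 1.79% of all promoters. H2-Eb1 is at chr17:34305752-34305822, plus strand, -115 to -45 from the start, and H2-Aa at chr17:34287857-34287927, minus strand, -104 to -34.
H2-Eb1: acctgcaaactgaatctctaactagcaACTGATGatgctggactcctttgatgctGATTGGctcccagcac
H2-Aa: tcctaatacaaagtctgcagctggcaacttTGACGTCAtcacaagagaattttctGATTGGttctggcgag
In H2-Eb1 the X core and the Y box were 21 bases apart. H2-DMb1 held the same arrangement with 22 bases between, at -91 to -85 and -62 to -57. H2-Aa had the Y box at -49 to -44 with no X core of these letters before it on the same strand, and the H2-DMa promoters held a Y box at -199 to -194 of the second listed start and neither motif at the first. A match of letters is a description of the window and not evidence that a factor was bound.

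With saline in IKKβ+/+ mice, levels per kilobase of merged exon fell in the order Cd74, H2-Aa, H2-Ab1, H2-Eb1, H2-DMb1, H2-DMa and Ciita. Cd74 had 1089 normalized counts per kb (range 935 to 1361), above H2-Aa at 654 (484 to 870). The levels per kb of H2-Aa, H2-Ab1 (347 to 566) and H2-Eb1 (276 to 440) overlapped between neighbours in this order. H2-DMb1 at 90.2 and H2-DMa at 26.9 normalized counts per kb came next, and Ciita had 4.99 (3.004 to 6.47). The effector genes except H2-DMa and H2-DMb1 had at least 79 reads per library, whereas Ciita rested on 5 to 67 reads per mouse.

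**Figure D1:**
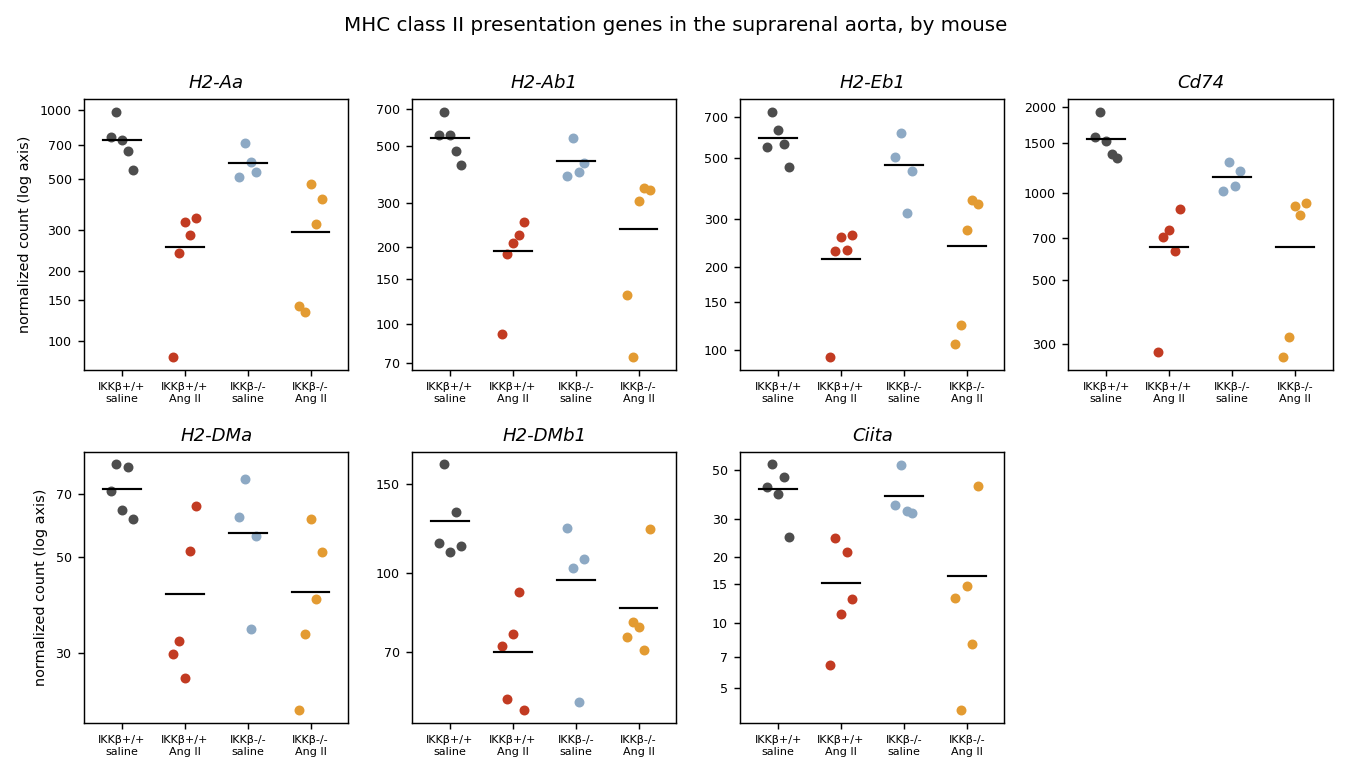
Normalized count (log axis) of each of the 7 genes in each mouse, by group; a point is a mouse and the bar the group mean. In IKKβ+/+ mice every gene but H2-DMa had all 5 Ang II mice below all 5 saline mice, and in IKKβ-/- mice this held for H2-Aa, H2-Ab1 and Cd74.

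The first comparison asked what Ang II did to these genes within 24 h in IKKβ+/+ mice. All 7 were called lower with Ang II, at a median of -1.47 on the log2(normalized count + 1) scale used for every fold change here, where the median of the 14845 genes tested was 0.0056. A gene was called when limma gave an adjusted p under 0.1 over all genes tested and the fold change exceeded 1.2. By that rule 4.33% of tested genes were lower and 8.66% changed in either direction. In 6 of the 7 genes the Ang II mice all lay below the saline mice, which was so for 4.47% of tested genes.

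The α and β chains of I-A, the class II molecule that C57BL6 mice display, are encoded by H2-Aa and H2-Ab1. H2-Aa had 546, 662, 740, 761 and 981 normalized counts in the 5 IKKβ+/+ saline mice and 84.6, 239, 287, 327 and 340 in the 5 Ang II mice. The highest Ang II mouse was below the lowest saline mouse, and mouse X2350 was far below the other Ang II mice. H2-Aa was 3.14-fold lower with Ang II (log2 -1.65, 95% interval -2.40 to -0.90, limma adjusted p = 0.0153). H2-Ab1 ran in parallel, from 421, 479, 552, 553 and 686 with saline to 91.0, 189, 207, 225 and 252 with Ang II. It was 2.90-fold lower (log2 -1.54, interval -2.26 to -0.81, limma adjusted p = 0.0175), again with no overlap.

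H2-Eb1 encodes the β chain of I-E; the C57BL6 background lacks a working I-E α chain gene, so these mice display no I-E. Saline mice had 461, 548, 560, 628 and 734 normalized counts of H2-Eb1, and Ang II mice 94.3, 229, 230, 257 and 261. It was 2.86-fold lower (log2 -1.52, interval -2.19 to -0.84, limma adjusted p = 0.0137); 4 of the 5 Ang II mice lay between 229 and 261 counts. Cd74 (chr18:60803848-60812652, plus strand) went from 1324, 1370, 1518, 1570 and 1928 normalized counts with saline to 281, 631, 708, 746 and 881 with Ang II. The groups were well apart, at 2.52-fold (log2 -1.33, interval -2.01 to -0.66, limma adjusted p = 0.0265).

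The peptide exchange pair changed less in size. H2-DMb1 had 110, 113, 114, 132 and 164 normalized counts with saline and 53.7, 56.6, 71.8, 75.7 and 91.7 with Ang II, with no overlap. That was a 1.82-fold lower level (log2 -0.86, interval -1.31 to -0.41, limma adjusted p = 0.0320). H2-DMa had 61.4, 64.3, 71.2, 80.7 and 81.8 with saline and 26.3, 30.0, 32.02, 51.6 and 65.6 with Ang II, so the top Ang II mouse fell inside the saline range. Its call rested close to the threshold (log2 -0.87, interval -1.48 to -0.26, limma adjusted p = 0.0930) and was lost when any 1 of 12 mice was left out.

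Ciita, the coactivator, had 24.7, 38.8, 41.9, 46.5 and 53.2 normalized counts with saline and 6.43, 10.97, 12.9, 21.0 and 24.5 with Ang II. The lowest saline mouse and the highest Ang II mouse nearly touched, at 31 and 23 reads. Ciita was 2.77-fold lower (log2 -1.47, interval -2.41 to -0.53, limma adjusted p = 0.0683), a call lost when any 1 of 7 mice was left out. For H2-Aa, H2-Ab1, H2-Eb1, Cd74 and H2-DMb1 the call held whichever mouse was left out.

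In IKKβ-/- mice the same 24 h of Ang II gave lower values for all 7 genes, with a median log2 fold change of -1.10 where all tested genes had a median of -0.0029. Ciita and H2-Eb1 were called lower, at a background of 2.69% of tested genes called lower and 5.29% called in either direction. The Ang II mice lay wholly below the saline mice for H2-Aa, H2-Ab1 and Cd74, against 2.88% of tested genes, yet these 3 missed the adjusted threshold. The 2 calls were fragile. None remained in edgeR's quasi-likelihood test (unadjusted p was under 0.05 for 5 members in limma), and leaving out single mice gave 0 to 5 called members, with 5 without IKKβ+/+ Ang II mouse X2350 or IKKβ-/- Ang II mouse X2386.

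H2-Aa had 510, 535, 591 and 715 normalized counts in the 4 IKKβ-/- saline mice and 133, 141, 320, 409 and 479 in the 5 Ang II mice. The difference was -1.16 (interval -1.96 to -0.37, limma adjusted p = 0.108). H2-Ab1 had 381, 398, 430 and 538 with saline and 73.8, 129, 304, 337 and 342 with Ang II (log2 -1.10, limma adjusted p = 0.114). In both I-A chains the Ang II mice split into a low pair, mice X2380 and X2383, and 3 mice nearer to saline. Markers of other cell types split the same mice. The low pair had summed dendritic cell markers of 275 and 275 normalized counts against 400 to 463 in the other 3 (X2384, X2385 and X2386), fibroblast markers of 63036 and 96027 against 124171 to 153023, and adipocyte markers of 1222 and 469 against 2104 to 8413. Smooth muscle markers were highest in the pair, at 534597 and 493557 against 298216 to 426264. Macrophage sums (6214 and 9456 against 8144 to 18903) and pan-leukocyte sums (749 and 598 against 556 to 1214) did not separate the pair. The part of these markers in the split was not tested.

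The same pair stood low for the other abundant members. Cd74 had 1016, 1063, 1194 and 1287 normalized counts with saline and 269, 317, 845, 902 and 924 with Ang II (log2 -0.99, interval -1.71 to -0.28, limma adjusted p = 0.127). H2-Eb1 had 315, 448, 504 and 616 with saline and 105, 124, 273, 341 and 352 with Ang II, and was called 2.15-fold lower (log2 -1.11, limma adjusted p = 0.0898). Its groups overlapped, since saline mouse X2406, the shallowest library, was the low value.

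Ciita had 31.9, 32.4, 34.7 and 52.7 normalized counts with saline and 3.97, 8.03, 12.9, 14.8 and 42.4 with Ang II in IKKβ-/- mice. Mouse X2386 was within the saline range and the other 4 Ang II mice were below it. The call (log2 -1.51, interval -2.51 to -0.51, limma adjusted p = 0.0977) was lost when any 1 of 17 mice was left out. The H2-DM pair was not called: H2-DMa ranged from 34.2 to 75.9 with saline and 22.2 to 61.3 with Ang II (log2 -0.47, interval -1.11 to 0.18). H2-DMb1 ranged from 55.9 to 123 and from 70.7 to 122 (log2 -0.15, interval -0.63 to 0.33).

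**Figure D2:**
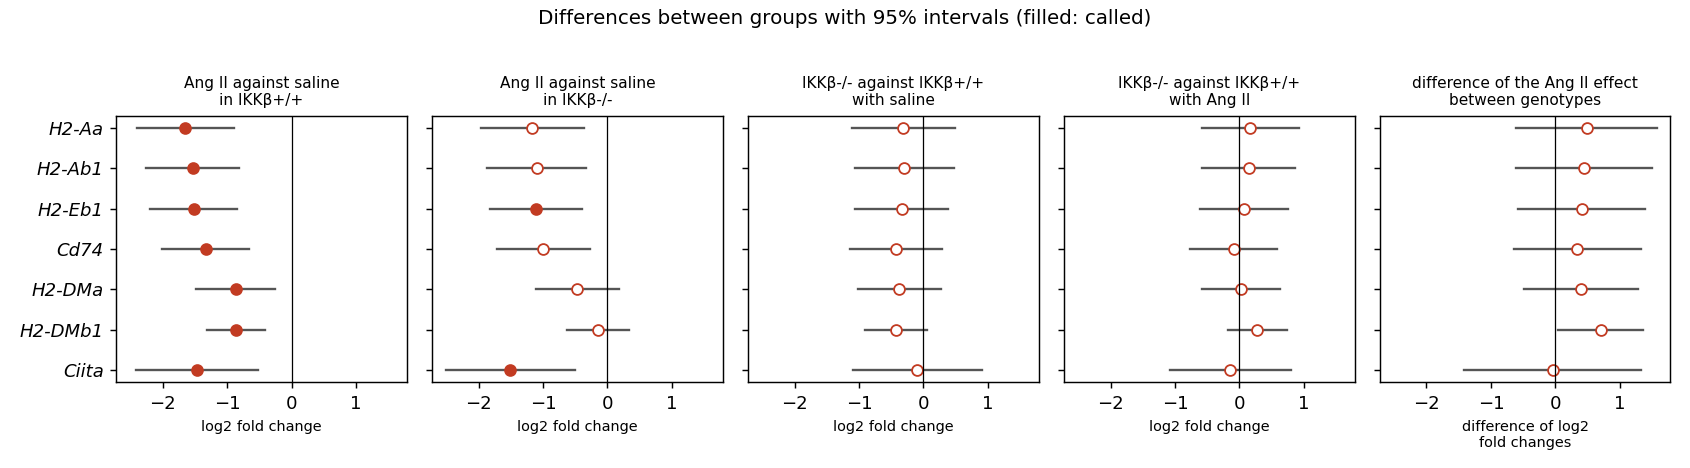
Log2 fold change of each gene in 4 comparisons, and the difference of the Ang II effect between genotypes in the panel at the right; bars are 95% intervals from limma and filled points are called. All 7 points are filled for Ang II in IKKβ+/+ mice, Ciita and H2-Eb1 in IKKβ-/- mice, and none elsewhere.

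Whether the deletion altered the response was tested as the difference between these Ang II effects. No member was called (limma, edgeR and DESeq2 each gave 0 of 7), and over all genes limma called 0 of 14845, or 0%, with 1654 at an unadjusted p under 0.05, edgeR 3 and DESeq2 279. H2-DMb1 had the largest difference, 0.71 on the log2 scale (interval 0.05 to 1.37), at an unadjusted limma p of 0.0375 and an adjusted p of 0.420. For H2-Aa it was 0.49 (interval -0.61 to 1.58) and for Ciita -0.04 (interval -1.42 to 1.33), so intervals this wide leave room for effects that differ by more than 2-fold in either direction for Ciita. The calls in IKKβ+/+ mice and their absence for 5 genes in IKKβ-/- mice are therefore not shown to differ between genotypes.

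Genotypes were then compared at equal infusion. These comparisons share their mice with the Ang II comparisons above and are given side by side with them. With saline, all 7 genes were nominally below their IKKβ+/+ level in IKKβ-/- mice, between -0.10 for Ciita and -0.43 for Cd74, with a median of -0.34. No member was called by limma, edgeR or DESeq2 and 0 had an unadjusted limma p under 0.05, while 5.47% of tested genes were called in either direction and 2.07% lower. Cd74, at -0.43 (interval -1.15 to 0.29, limma adjusted p = 0.520), was the single member whose groups did not overlap, which 4.08% of tested genes did in the lower direction. It was called when the fit held only the saline mice. With Ang II the differences lay between -0.14 for Ciita and 0.28 for H2-DMb1. None was called by the 3 tools, 0 had an unadjusted limma p under 0.05, and 0.128% of tested genes were called.

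Across the 19 mice the members ranked together. Mouse X2350 (IKKβ+/+, Ang II) was among the 3 lowest mice for 6 of the 7 genes, and mice X2380 and X2383 (IKKβ-/-, Ang II) for 5 each. Mouse X2350 also had the lowest fibroblast marker sum of its group, at 77541 against 86780 to 135535 normalized counts, and the lowest pan-leukocyte sum, while its dendritic sum of 350 was within the group's range. IKKβ+/+ saline mouse X2372 was the highest of all 19 mice for all 7. Correlated with the mean of the other members on the log2 scale, H2-Eb1 had a Pearson r of 0.97, H2-Ab1 0.96, H2-Aa 0.96, Cd74 0.95, Ciita 0.84, H2-DMa 0.81 and H2-DMb1 0.64 over 19 mice. With group means removed r stayed between 0.90 and 0.91 for the first 4 and was 0.65 for Ciita, 0.65 for H2-DMa and 0.28 for H2-DMb1. These are descriptions over mice that share infusion groups and libraries.

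Some proportions between members ranged more widely with Ang II than with saline. In IKKβ+/+ saline mice the ratio of H2-Aa to H2-Ab1 counts was 1.37 ± 0.0499 (SD, n = 5), and with Ang II 1.28 ± 0.232 (n = 5). H2-DMb1 counts per H2-Ab1 count were 0.199 to 0.276 with saline and 0.213 to 0.788 with Ang II in IKKβ+/+ mice, and 0.140 to 0.322 and 0.207 to 1.09 in IKKβ-/- mice. The high ends were mice X2350 and X2383, in which the I-A chains were lowest. Ciita counts per 100 H2-Aa counts were 5.54 ± 0.916 with saline and 6.47 ± 2.88 with Ang II in IKKβ+/+ mice (n = 5 each), and their ranges overlapped.

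Of the genes that act on or beside the class II promoters, Rfx5, a DNA-binding subunit of the X box complex, was the 1 of 7 promoter factors called. It had 253, 259, 262, 273 and 338 normalized counts in IKKβ+/+ saline mice and 142, 172, 176, 184 and 193 with Ang II (log2 -0.67, limma adjusted p = 0.0171). In IKKβ-/- mice it went from 208, 265, 290 and 382 to 134, 156, 163, 178 and 200 (log2 -0.76, limma adjusted p = 0.0151). Ang II mice were below saline mice in both genotypes. The other 6 factors (Rfxank, Rfxap, Nfya, Nfyb, Nfyc and Creb1) were not called in any comparison.

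The interferon-γ route to Ciita was measured through 7 genes; Ifng itself was not among the rows used here. Irf1, the interferon-induced factor that acts on a Ciita promoter, had 531 ± 74.0 normalized counts (SD, n = 5) with saline and 261 ± 69.5 (n = 5) with Ang II in IKKβ+/+ mice, a log2 fold change of -1.05 (limma adjusted p = 0.00663) without overlap. In IKKβ-/- mice it had 384 ± 80.3 (n = 4) and 360 ± 91.5 (n = 5), a difference of -0.11 (limma adjusted p = 0.835). The difference between these responses was 0.94 (interval 0.35 to 1.53), with an unadjusted limma p of 0.00333 and an adjusted p of 0.269, so it was not called.

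Ifngr2, a chain of the interferon-γ receptor, was called lower in both genotypes, from 1671 ± 114 to 1287 ± 114 in IKKβ+/+ mice (n = 5 each; log2 -0.38, limma adjusted p = 0.0420) and from 1614 ± 68.0 (n = 4) to 1277 ± 212 (n = 5) in IKKβ-/- mice (log2 -0.35, limma adjusted p = 0.0855). In the IKKβ-/- comparison, Ciita and Rfx5 were called lower and Irf1 was not called. That Ciita call was lost when any 1 of 17 mice was left out. The part of this route in the Ciita values was not tested.

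Among 7 processing and turnover genes, Ctss (cathepsin S, which trims the invariant chain) was called in 1 comparison: 625 ± 185 normalized counts (n = 5) in IKKβ+/+ and 345 ± 103 (n = 4) in IKKβ-/- mice with saline (log2 -0.86, limma adjusted p = 0.0928). None of the 7 was called with Ang II in either genotype, and their median log2 fold changes were -0.10 and 0.15. The costimulators Cd40, Cd80 and Cd86, which an antigen-presenting cell needs to activate a T cell, were not called in any comparison. The remaining class II genes of the region were scarce: H2-DMb2 had a group mean of at most 6.88 normalized counts, H2-Ob at most 10.6, and H2-Oa and H2-Eb2 were lower still. H2-Ea was not among the rows used here.

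**Figure D3:**
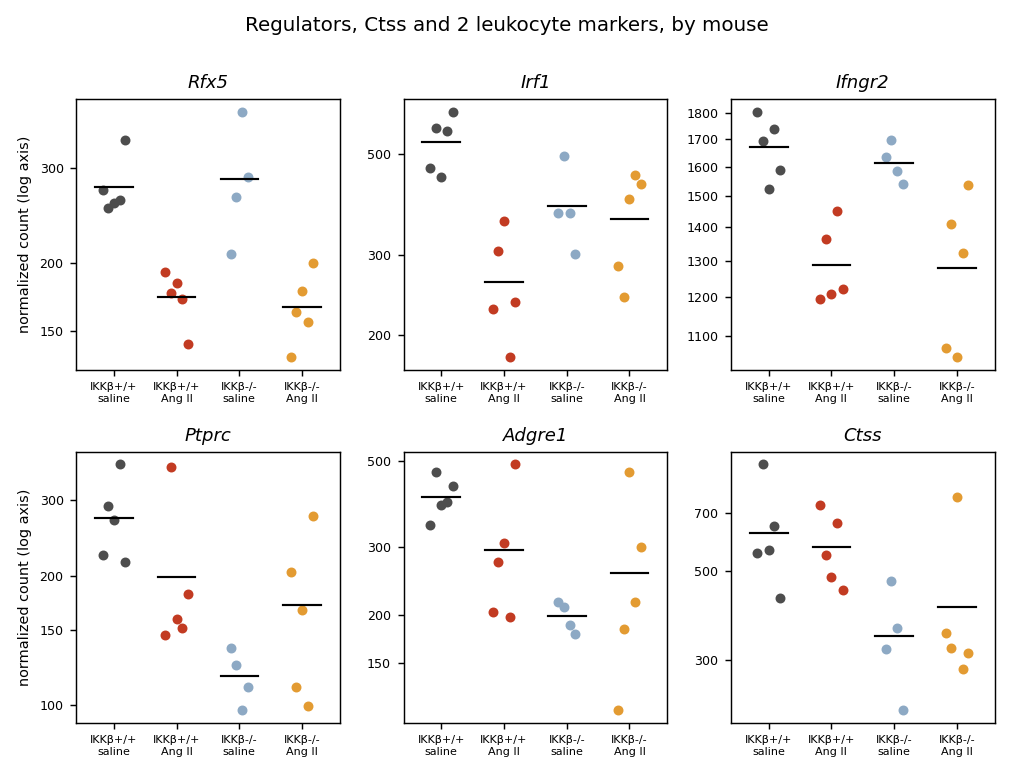
Normalized count (log axis) of Rfx5, Irf1, Ifngr2, Ptprc, Adgre1 and Ctss in each mouse; a point is a mouse and the bar the group mean. Rfx5 and Ifngr2 have all Ang II mice below all saline mice in both genotypes, Irf1 in IKKβ+/+ mice, and Ptprc and Adgre1 are lowest as a group in IKKβ-/- mice with saline.

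Leukocytes are the main class II cells, and their markers in the same libraries are set beside the members. With Ang II in IKKβ+/+ mice 0 of 4 pan-leukocyte markers and 0 of 15 macrophage markers were called (limma). Their median log2 fold changes were -0.17 and -0.23, and 4 of 4 and 11 of 15 were below 0. Ptprc (CD45, on all leukocytes) had 215 to 364 normalized counts with saline and 146 to 359 with Ang II, and Adgre1 (F4/80, on macrophages) 341 to 470 and 197 to 491. Each overlap rested on 1 Ang II mouse, X2352 at 359 for Ptprc and X2359 at 491 for Adgre1. The other Ang II mice had 146, 151, 159 and 182 for Ptprc and 197, 204, 274 and 307 for Adgre1, below every saline mouse. Summed over the list, macrophage markers ranged from 11228 to 14391 with saline and 9511 to 14126 with Ang II. With Ang II in IKKβ-/- mice 0 of 4 pan-leukocyte markers was called, and 1 of the 15 macrophage markers, Lyve1 (on perivascular macrophages and lymphatic vessels), was called 2.10-fold higher (limma adjusted p = 0.0593). There 5 of the 15 macrophage markers were below 0, and the median was 0.08 on the log2 scale. The dendritic cell list did separate by group in IKKβ+/+ mice, at 383 to 507 against 301 to 354 summed counts, although 0 of its 5 tested genes was called; its part in the lower class II values was not tested. The dendritic sums of IKKβ-/- mice overlapped, at 345 to 438 with saline and 275 to 463 with Ang II.

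Among single defining markers, those of B and T cells were low, and those of dendritic cells were mixed. Flt3 (dendritic cells) ranged from 0 to 5.73 normalized counts over all 19 mice, Cd79a (B cells) from 0 to 19.9 and Cd3e (T cells) from 0 to 6.65. Xcr1 and Clec9a, of cross-presenting dendritic cells, had group means of at most 1.28 and 3.52, whereas Zbtb46, a factor of dendritic cells that endothelial cells also express, had 139 to 284 normalized counts and made up much of the dendritic sums. Itgax reached 70.7 and Cd209a 76.1. B cell marker sums were 24.7 to 106 with saline and 8.57 to 139 with Ang II in IKKβ+/+ mice, so they overlapped.

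Class II counts were also set against leukocyte markers as ratios within a mouse, with no test. H2-Aa counts per Ptprc count were 1.82 to 3.40 with saline and 0.581 to 2.06 with Ang II in IKKβ+/+ mice, with some overlap, and 3.74 to 6.07 and 0.692 to 3.21 in IKKβ-/- mice, with none. The sum of H2-Aa, H2-Ab1, H2-Eb1 and Cd74 per 100 counts of the 4 pan-leukocyte markers was 212 to 347 with saline and 66.2 to 180 with Ang II in IKKβ+/+ mice, and 342 to 493 and 86.2 to 334 in IKKβ-/- mice. Neither genotype overlapped between infusions on that measure. Mean Ptprc was 273 with saline and 199 with Ang II in IKKβ+/+ mice, and 117 and 171 in IKKβ-/- mice. With Ang II 0 of 4 pan-leukocyte markers was below 0 in IKKβ-/- mice and 4 of 4 were in IKKβ+/+ mice, with 0 called in either. The denominators of these ratios thus moved in opposite directions in the 2 genotypes, and their part in the ratios was not tested. Per count of the macrophage list, H2-Aa went from 0.0391 to 0.0682 with saline to 0.00766 to 0.0301 with Ang II in IKKβ+/+ mice, and from 0.0545 to 0.0723 to 0.0140 to 0.0392 in IKKβ-/- mice.

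With saline some leukocyte markers were called lower in IKKβ-/- mice. The number of genes called in this comparison ranged from 24 to 1727 when single mice were left out, and the marker calls were not followed in those fits. Ptprc was called 2.29-fold lower in IKKβ-/- than in IKKβ+/+ mice with saline (117 ± 16.8, n = 4, against 273 ± 59.8, n = 5; limma adjusted p = 0.0487), and Adgre1 2.03-fold lower (limma adjusted p = 0.0779). Neither gene's groups overlapped. In all, 2 of 4 pan-leukocyte, 2 of 15 macrophage and 1 of 5 tested dendritic markers were called lower there, where 2.07% of tested genes were. The pan-leukocyte sum was 529 to 787 against 1047 to 1450. Class II genes were not called, although all 7 were nominally lower, with a median of -0.34. H2-Aa per Ptprc was 3.74 to 6.07 in IKKβ-/- and 1.82 to 3.40 in IKKβ+/+ saline mice. The part of leukocyte number in the class II values was not tested.

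**Figure D4:**
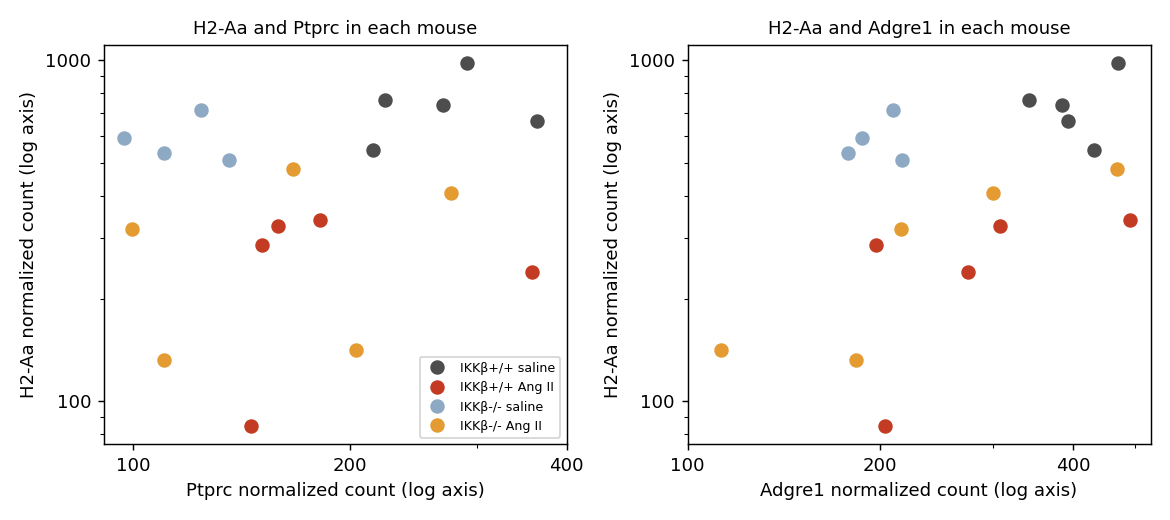
H2-Aa against Ptprc (left) and against Adgre1 (right) in each mouse, as normalized counts on log axes; colours give the 4 groups. Ang II mice of both genotypes lie below the saline mice in H2-Aa (85 to 479 against 510 to 981). Ptprc spans 215 to 364 with saline and 146 to 359 with Ang II in IKKβ+/+ mice, where only Ang II mouse X2352 reaches the saline range. In IKKβ-/- mice it spans 97.3 to 136 with saline and 99.6 to 276 with Ang II.

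Markers of the wall's own cell types also moved. In IKKβ+/+ mice with Ang II the smooth muscle genes Tagln and Cnn1 were called higher (log2 0.66 and 0.82, limma adjusted p = 0.0653 and 0.0303), and the endothelial gene Tek and the fibroblast gene Lum lower (-1.08 and -1.27, limma adjusted p = 0.0299 and 0.0757). Smooth muscle marker sums did not overlap there, at 321310 to 430182 with saline and 448503 to 623963 with Ang II, and 1 of 6 markers was below 0. Fibroblast marker sums were 108815 to 154348 with saline and 77541 to 135535 with Ang II there, and endothelial sums 20462 to 35436 and 11277 to 22610. In these mice 5 of 6 endothelial and 6 of 6 fibroblast markers were below 0, with medians of -0.69 and -0.56. In IKKβ-/- mice with Ang II the 3 tested adipocyte markers were called higher, with sums of 51.2 to 356 with saline and 469 to 8413 with Ang II. The endothelial gene Kdr was called higher there (log2 1.79, limma adjusted p = 0.0990), with 40.7 and 81.0 normalized counts in mice X2380 and X2383 and 304 to 417 in the other 3. The other 5 endothelial markers were below 0 and not called. The part of these marker changes in the class II values was not tested.

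**Figure D5:**
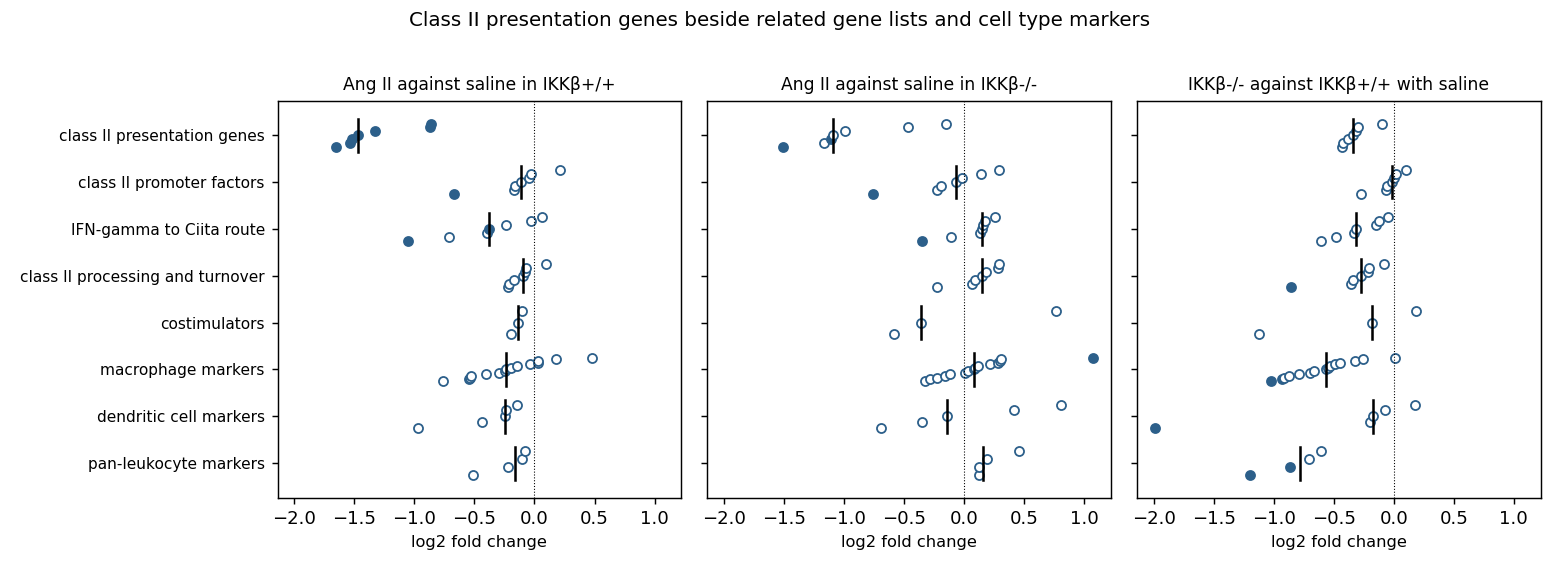
Log2 fold change of each tested gene in 8 lists for 3 comparisons; a point is a gene, filled where called, and the bar is the list's median. The class II presentation genes have medians of -1.47 and -1.10 with Ang II, where the pan-leukocyte markers have -0.17 and 0.16; with saline the pan-leukocyte median is -0.78 in IKKβ-/- against IKKβ+/+ mice and that of the class II genes -0.34.

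The tested genes outside the list whose log2 values followed the mean of the members most closely over the 19 mice were Gbp9 (Pearson r = 0.90), Plekha6 (0.87), Sp100 (0.85), Phf11b (0.85), Aldh3a1 (0.85), Gbp3 (0.85), Gbp4 (0.85) and Ppt1 (0.84). With group means removed, r was 0.71 for Gbp9 and 0.55 to 0.67 for the other 7. Gbp9 encodes a guanylate-binding protein and had 373 ± 75.4 normalized counts with saline and 125 ± 53.0 with Ang II in IKKβ+/+ mice (SD, n = 5 each), and 302 ± 89.9 (n = 4) and 149 ± 69.8 (n = 5) in IKKβ-/- mice. Gbp4 had the largest fold change of the 8, at -2.36 in IKKβ+/+ and -2.07 in IKKβ-/- mice, from 325 ± 152 to 62.1 ± 28.5 and from 313 ± 164 to 79.6 ± 44.1. All 8 were called lower with Ang II in IKKβ+/+ mice, and 6 of them, all but Plekha6 and Sp100, also in IKKβ-/- mice. The genes were picked for this likeness over mice that include the Ang II groups, so these calls are no separate evidence.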

How the data were processed

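Poly(A) RNA of each SRA was sequenced from stranded libraries as 84-base single reads. The authors trimmed reads with Trimmomatic 0.35, aligned them with STAR 2.7.1a to GRCm38 with Gencode M25 (the processing notes also list RSEM) and normalized gene read counts with DESeq2 1.30.1. The deposited values are this signal, counts divided by a size factor per mouse; 100% came out as whole reads within 0.05 of a read once the factor was recovered, which gave the read totals. Values still depend on that scaling.

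A gene was tested where 4 or more mice reached 10 normalized counts (14845 of 20408 genes; all 7 members passed). Log2(normalized count + 1) was fitted with limma 3.58.1 in R 4.3.3 (a mean per group over all 19 mice, trended variance, two-sided, Benjamini-Hochberg over all genes tested), and calls followed the study's thresholds (adjusted p under 0.1, fold change above 1.2). The fit was tested on simulated data only for Ang II in IKKβ+/+ mice, with changes only in genes more abundant than Ciita. edgeR 4.0.16 and DESeq2 1.42.0 ran on the recovered reads as alternatives, beside another pseudocount, filter, scaling, threshold and sample set, and leaving out each mouse. Members and lists were chosen with earlier results of these data known. The genes named are the members, the called genes of the related lists (with H2-DMb2, H2-Ea and Rfx5 always), 5 defining markers and the 8 genes most like the members; called wall markers, Acta2, Lyve1, further dendritic cell markers, Dexi and the costimulators were added after their values were seen. Merged exon length covers all basic transcripts of a gene. Sequences are RefSeq's; no sequence is shown for the other members.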

Additional observations from a re-analysis of the deposited data

Results flagged for a closer look

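In 4 of 28 sets of values (7 genes in 4 groups), 1 mouse stood apart from the rest of its group by Dixon's criterion, which chance meets in about 1 in 20 groups. H2-Eb1 in IKKβ+/+ mice with Ang II was lowest in mouse X2350, at 94.3 normalized counts, where the next mouse had 229 and the highest 261. Ciita was highest in mouse X2403 among IKKβ-/- saline mice, at 52.7 where the next had 34.7. In IKKβ-/- mice with Ang II, mouse X2386 was highest for Ciita, at 42.4 where the next had 14.8, and for H2-DMb1, at 122 where the next had 80.2. In that mouse H2-Aa, at 409, was inside its group's range.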

How the results depend on the processing

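With Ang II in IKKβ+/+ mice, 7 members were called; an adjusted p under 0.05 left 5, no filter on low values and edgeR's quasi-likelihood test 6 each, and leaving out single mice 5 to 7. The 2 calls in IKKβ-/- mice became 1 with no filter or with TMM scaling, 0 at an adjusted p under 0.05, with only the groups compared or in edgeR, and 0 to 5 when single mice were left out (0 in 12 of 19 cases); a pseudocount of 4 gave 2, Ciita and H2-Eb1, and DESeq2 gave 2, H2-Eb1 and H2-Aa, with Ciita no longer called. Over these 7 settings Ciita was called in 1 and H2-Eb1 in 4. In IKKβ-/- against IKKβ+/+ mice with saline, the fit of those groups alone gave 1 call, Cd74, where the count was otherwise 0. The 7 members stayed below 0 with Ang II in both genotypes under every setting run. Signs turned only in comparisons without a call. For IKKβ-/- against IKKβ+/+ with Ang II, Cd74 was 0.00305 in DESeq2, Ciita 0.0906 in edgeR and 0.0894 in DESeq2. For the difference of the Ang II effects, Ciita was 0.00954 with a pseudocount of 4, 0.21 in edgeR and 0.20 in DESeq2. Leaving out single mice moved Ciita between -0.26 and 0.0045 for the genotypes with saline, and between -0.47 and 0.32 for the difference. For the genotypes with Ang II, the same exercise gave -0.19 to 0.41 for H2-Aa, -0.10 to 0.51 for H2-Ab1, -0.20 to 0.32 for H2-Eb1, -0.37 to 0.18 for Cd74, -0.56 to 0.22 for Ciita and -0.13 to 0.23 for H2-DMa. The causes were not tested. At 5 to 67 reads per mouse, Ciita is limited by counting as well as by the spread between mice. No paired analysis was possible because the mouse numbers differ between groups.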
